A study of Homo sapiens with 2 samples.

Results

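The 10 genes described here, several of them best known from specialised tissues such as muscle, testis and thyroid, were chosen by the pileup at 1 end of each, which was far lower, or not called as a peak, in cells given a hairpin that targets Vanguard, a long non-coding RNA (sh-VNGD). They are EXOC3L4, GDPD3, LRRN4, C9orf152, MYPN and CATSPER3, which had an end peak in both libraries, and TNFRSF6B, FAM83A, TNNT2 and SLC5A5, which had one in the control hairpin library (sh-ctrl) only. They are 10 of 20037 protein-coding genes examined. The measurement was ATAC-seq, in which the Tn5 transposase cuts open chromatin and inserts sequencing adapters, in U2OS, an established human osteosarcoma cell line. Cells of both groups were infected, with sh-VNGD or with sh-ctrl, and each group held 1 library, so no difference below has a replicate check and none carries a test. Each interval is an exact Clopper-Pearson 95% interval and covers counting error only.

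Open chromatin at a gene's start exposes DNA to transcription factors and the transcription machinery, while other open sites inside and between genes can act as enhancers. Genes of specialised tissues are usually closed and silent in unrelated cell types. Open signal can appear at them without transcription, and RNA was not measured here, so tissue specificity and expression are background, not data. In a bulk library, fewer cells with an open site and less opening per cell cannot be told apart.

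The sh-VNGD library kept 31326715 tags (insertions at distinct positions), which is 1.37 times the 22931980 kept in sh-ctrl, although 48164322 had been read for sh-VNGD and 51628228 for sh-ctrl. Repeated positions made up 35% of the sh-VNGD tags and 56% of the sh-ctrl tags. On the autosomes, X and Y there were 302466 peaks in sh-VNGD (of 321151 listed) against 213285 in sh-ctrl (of 225404 listed). The part of these library differences in the differences below was not tested. The median gene end had a log2 ratio of -0.45 per kept tag, sh-VNGD over sh-ctrl, which corresponds to equal unscaled pileups (tags over the peak summit). Ratios below are relative to that median unless another is named, so that 0 means the same unscaled pileup. Of 7 mesenchymal marker genes taken as a check of the cell line, COL1A1, COL1A2, FN1 and TWIST1 had a gene-end peak in both libraries and RUNX2, SPARC and VIM in neither. FN1 had 44 tags in sh-VNGD against 88 in sh-ctrl, and TWIST1 had 41 in sh-VNGD against 12 in sh-ctrl. ATAC-seq does not measure RNA and gives no check of the knockdown.

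The promoter windows of SLC5A5, TNFRSF6B and TNNT2 are printed because for these genes a sh-ctrl peak without a sh-VNGD partner lay on or within 1000 bp of the annotated start. SLC5A5 makes the sodium-iodide symporter of thyroid cells, TNFRSF6B a soluble decoy receptor that binds FAS ligand and other ligands of the tumour necrosis factor family, and TNNT2 the cardiac troponin T of the contractile thin filament. Each window runs from 250 bases before to 50 after the start given by RefSeq (GRCh38.p14), 5′ to 3′ on the strand of the gene. They are chr19:17871695-17871994 on the plus strand for SLC5A5, chr20:63696402-63696701 on the plus strand for TNFRSF6B and chr1:201377631-201377930 on the minus strand for TNNT2. Capitals mark matches, on either strand, to the motifs named after the sequences.
SLC5A5: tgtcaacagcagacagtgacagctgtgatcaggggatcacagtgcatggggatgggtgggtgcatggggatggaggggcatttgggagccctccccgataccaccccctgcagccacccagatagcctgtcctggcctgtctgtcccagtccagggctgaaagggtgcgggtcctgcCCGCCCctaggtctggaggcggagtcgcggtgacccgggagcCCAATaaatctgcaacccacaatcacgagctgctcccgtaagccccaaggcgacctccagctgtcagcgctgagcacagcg
TNFRSF6B: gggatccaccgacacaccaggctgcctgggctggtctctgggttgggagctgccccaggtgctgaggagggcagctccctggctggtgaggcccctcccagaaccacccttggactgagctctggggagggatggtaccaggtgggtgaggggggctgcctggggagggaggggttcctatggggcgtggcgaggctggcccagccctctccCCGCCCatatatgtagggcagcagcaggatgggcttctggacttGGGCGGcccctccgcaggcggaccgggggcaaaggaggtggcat
TNNT2: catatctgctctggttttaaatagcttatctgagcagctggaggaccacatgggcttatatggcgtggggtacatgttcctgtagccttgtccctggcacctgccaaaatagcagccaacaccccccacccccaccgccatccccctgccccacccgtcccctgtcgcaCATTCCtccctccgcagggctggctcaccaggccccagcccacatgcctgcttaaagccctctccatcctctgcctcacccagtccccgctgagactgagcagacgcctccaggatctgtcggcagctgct
All 300 bases of the SLC5A5 window lay inside its sh-ctrl peak and 0 lay in a sh-VNGD peak. In the TNFRSF6B window 255 bases lay in a sh-ctrl peak and 0 in a sh-VNGD peak. The TNNT2 window lay in no peak of either library, since the sh-ctrl peak began farther inside the gene. The GC content was 63.7% for SLC5A5, 69% for TNFRSF6B and 61% for TNNT2, against a median of 58.3% over 27326 promoters of the same length.

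The GC box (GGGCGG), bound by factors of the SP and KLF families, occurred once in the SLC5A5 window, at bases 178 to 183, and at 2 places in the TNFRSF6B window, bases 213 to 218 and 257 to 262. Its letters are in 44.6% of all promoters of this length. SLC5A5 also held a CCAAT box at bases 220 to 224, which 35.7% of promoters hold. TNNT2 held CATTCC, the core of the M-CAT element bound by TEAD factors in muscle genes, at bases 170 to 175, found in 14.1% of promoters. Also searched, on both strands, were the AP-1 site (TGANTCA, in 7.77% of promoters), TATAAA, the ETS site CCGGAA, the E-box CACGTG, the CRE TGACGTCA and the NF-kB site, and none of these letters occurred in the 3 windows. A match describes letters only, and no motif is shared by all 3. RefSeq windows were matched for 7 of the 10 genes. Those of EXOC3L4, C9orf152, MYPN and CATSPER3 had 0 bases in a peak of either library.

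The values that chose the genes are given as a description. A gene end was counted where a peak lay within 1000 bp of either outer bound of the gene, and positions are on GRCh38. EXOC3L4, a relative of the exocyst subunit EXOC3 (end region chr14:103110701-103111706), had 22 tags in sh-VNGD against 77 in sh-ctrl, a ratio of -1.81 on the log2 scale (-2.56 to -1.11). GDPD3, a phosphodiesterase that acts on lysophospholipids (chr16:30104121-30105113), had 48 in sh-VNGD against 157 in sh-ctrl, a ratio of -1.71 (-2.21 to -1.23). LRRN4, a membrane protein with leucine-rich repeats (chr20:6053844-6054398), had 24 in sh-VNGD against 70 in sh-ctrl, a ratio of -1.54 (-2.28 to -0.86). The sh-ctrl value was the higher in each, and GDPD3 had the most tags of the 10 genes.

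C9orf152, an uncharacterised open reading frame (chr9:110206659-110207576), had 26 tags in sh-VNGD against 74 in sh-ctrl, a ratio of -1.51 (-2.21 to -0.85). MYPN, which makes the Z-disc protein myopalladin of striated muscle (chr10:68087276-68088016), had 16 in sh-VNGD against 45 in sh-ctrl, a ratio of -1.49 (-2.41 to -0.64). CATSPER3, a pore subunit of the sperm calcium channel (chr5:134968067-134968528), had 12 in sh-VNGD against 33 in sh-ctrl, a ratio of -1.46 (-2.55 to -0.47). The intervals of these 6 genes overlap, so their order among themselves is not resolved. Genes at or below -1 made up 0.589% of the 13917 genes with a ratio, or 0.598% of the 12200 with at least 30 tags in either library, and the 6 rank 2, 3, 6, 8, 9 and 10 from the lowest. CATSPER3 (-1.46) and MYPN (-1.49) stand just inside the lowest 10, which also hold NR2E3 (-1.70), CXorf65 (-1.56) and LYZL2 (-1.54), and H1-5 (-1.45), TNNC1 (-1.43) and ZNF229 (-1.42) stand just outside.

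The called peaks were shorter in sh-VNGD at each of the 6. A called length depends on the pileup, by which the genes were chosen, so it is not a separate observation. EXOC3L4 had a peak of 307 bp in sh-VNGD against 1006 bp in sh-ctrl, with summits 312 bp apart. The C9orf152 peak was 370 bp long in sh-VNGD against 918 bp in sh-ctrl, and that of MYPN 200 bp in sh-VNGD against 741 bp in sh-ctrl. The GDPD3 peak differed least in length, with 891 bp in sh-VNGD against 950 bp in sh-ctrl. In enrichment over the local background, the authors' fold values were 7.75 in sh-VNGD against 15.9 in sh-ctrl for GDPD3, and 4.87 in sh-VNGD against 7.75 in sh-ctrl for EXOC3L4. By fold enrichment the EXOC3L4 ratio was -0.56, against -1.81 by pileup, and its local background differed too, as described below.

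The other 4 genes were 4 of 588 whose end had a called peak in sh-ctrl alone, which is 2.93% of all genes. TNFRSF6B had 75 tags in sh-ctrl (chr20:63697318-63697647) and FAM83A 66 (chr8:123178893-123179184). TNNT2 had 61 (chr1:201376898-201377162) and SLC5A5 60 (chr19:17871682-17872053). All 4 stood above the median of 14 over the 588 genes. FAM83A makes a scaffold protein that binds casein kinase 1 and is linked to epidermal growth factor receptor signalling. Among the 588 genes these 4 rank 2 to 5, after LFNG with 84 tags and before NTSR1 with 56. No called peak does not mean 0 tags in sh-VNGD. At a similar local background, the lowest summits called in sh-VNGD held 32 tags for TNFRSF6B and SLC5A5 and 28 for FAM83A and TNNT2, so up to about that many tags could lie there uncalled.

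**Figure D1:**
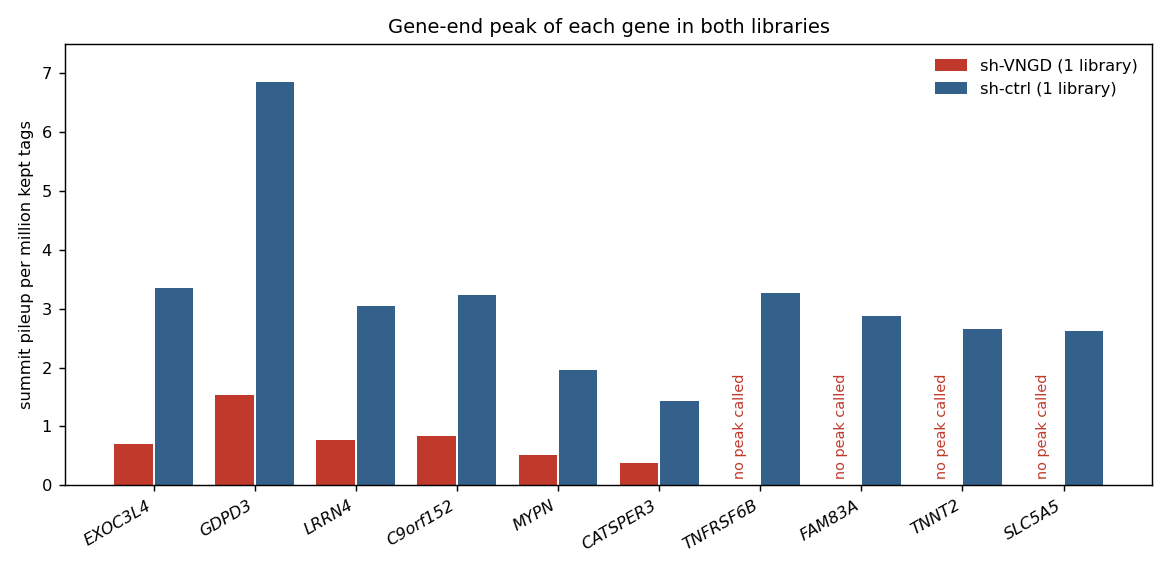
Tags at the summit of the gene-end peak per 1000000 kept tags for each of the 10 genes, sh-VNGD beside sh-ctrl. EXOC3L4 stands at 0.702 in sh-VNGD against 3.36 in sh-ctrl and GDPD3 at 1.53 in sh-VNGD against 6.85 in sh-ctrl, while the last 4 genes have a sh-ctrl value only.

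The peaks did not all mark gene starts. For SLC5A5 the sh-ctrl summit lay 38 bp from the annotated start, for CATSPER3 304 bp, for TNNT2 667 bp, for TNFRSF6B 832 bp and for C9orf152 976 bp. At EXOC3L4 the peak lay past the 3′ end of the gene, 16617 bp from the annotated start at base 103094725. At MYPN, on the plus strand, it lay at the 5′ outer bound of the gene, 21675 bp from the start in the promoter table. That table held no start or strand for GDPD3, LRRN4 and FAM83A, so it is not known which end of these genes their peaks mark. Counted from the annotated start only, C9orf152 and CATSPER3 kept a ratio, with a median of -1.47. The limit of 1000 bp decided some assignments. Within 500 bp TNNT2 had no end peak in either library and C9orf152 had one in sh-VNGD only, whereas within 2000 bp SLC5A5 was assigned a neighbouring peak with 110 tags in sh-VNGD against 103 in sh-ctrl, a ratio of 0.09.

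All peaks of both libraries from 50 kb before to 50 kb after each gene were then taken to tell a difference at 1 peak from one of the region. The 10 windows held 209 peaks in sh-VNGD against 174 in sh-ctrl, which merged into regions of which 138 had a peak in both, 69 in sh-VNGD only and 35 in sh-ctrl only. As shares of the regions, 28.5% were in sh-VNGD only and 14.5% in sh-ctrl only, against 41.2% in sh-VNGD only and 16.5% in sh-ctrl only over all merged regions. Outside the gene ends, 132 regions were shared. They ranged from -0.97 to 1.51 with a median of 0.04, against a median of 0.19 over all shared regions. In 0 of the 132 was the ratio at or below -1, close to the 1.75% of all shared regions.

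Summed over the shared regions of each flank, the signal was close to that of other genes. The sums were 845 tags in sh-VNGD against 866 in sh-ctrl around EXOC3L4, 1017 in sh-VNGD against 1053 in sh-ctrl around GDPD3, and 1383 in sh-VNGD against 1398 in sh-ctrl around TNFRSF6B. Relative to the median flank of all genes (-0.36 per kept tag), the ratios of the 10 flanks ran from -0.19 at FAM83A (-0.33 to -0.05) to 0.21 at C9orf152 (0.01 to 0.41). The intervals at FAM83A and GDPD3 (-0.14, -0.26 to -0.01) lay below 0, that at C9orf152 above 0, and the other 7 included 0. A flank ratio above -0.2 was read as a difference at 1 peak and one at or below -0.5 as a regional one. All 10 were of the first kind, as were 85.3% of all 19278 genes with a flank and 80.2% of genes with an end ratio at or below -1. The flank ratio counts only regions called in both libraries, and 5 of the 10 stayed above -0.2 with uncalled peaks set to the lowest called pileup, and 1 without centring on the median flank. A regional reading, with a flank at or below -0.5, applied to 0.747% of all genes, 6.17% of genes with an end ratio at or below -1 and 0 of these 10.

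**Figure D2:**
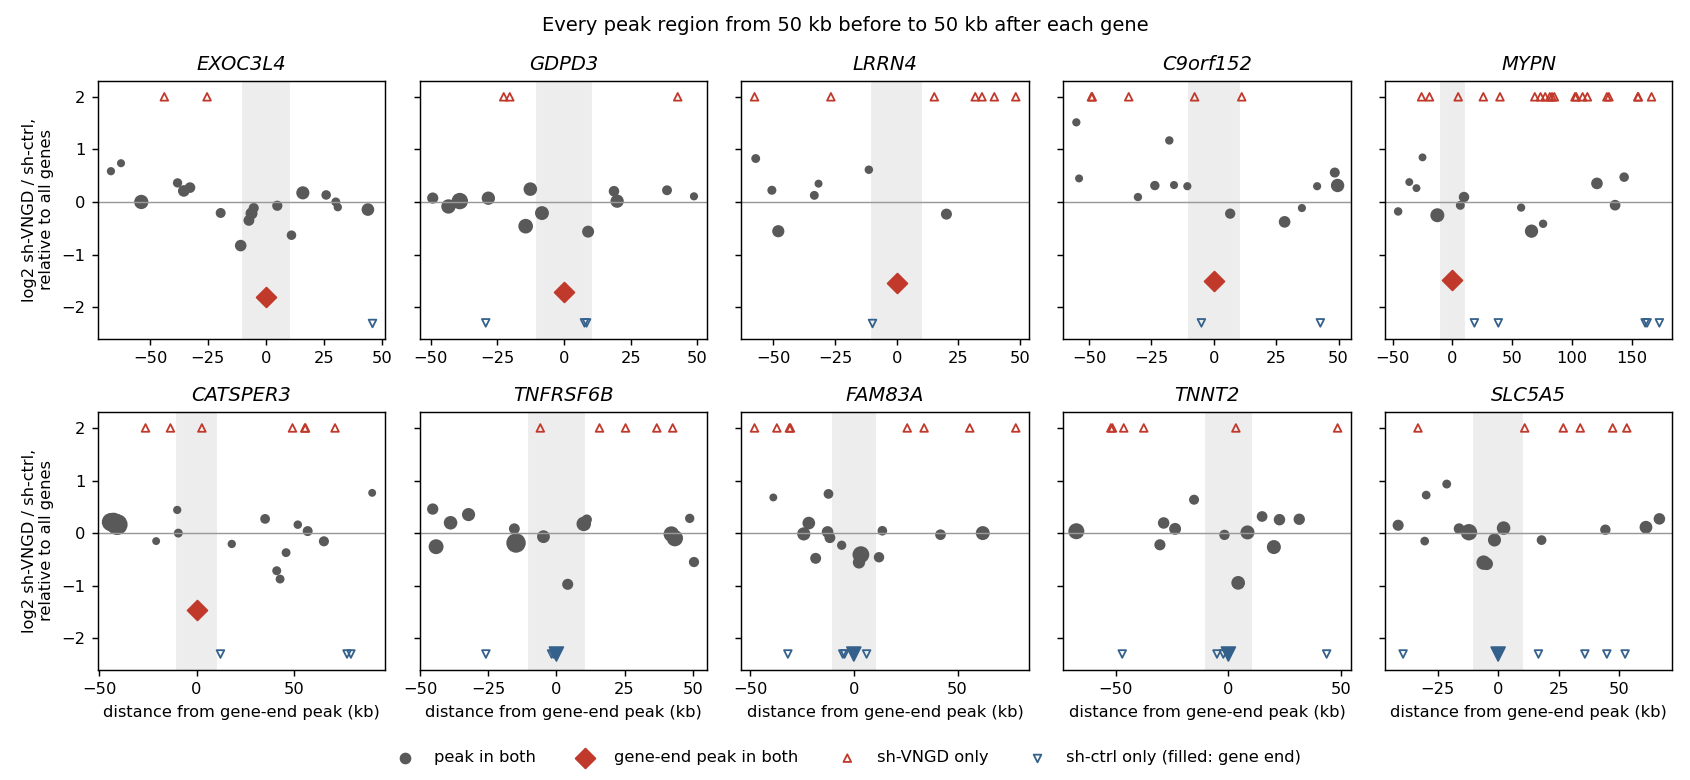
Log2 ratio of each region shared by both libraries (sh-VNGD over sh-ctrl, relative to the median gene end) against its distance in kb from the gene-end peak, 1 panel per gene, with peaks called in 1 library only drawn at the upper and lower edge. The gene-end diamonds of the first 6 genes stand between -1.81 and -1.46, below every other shared region of their windows, which reach no lower than -0.87. The genes were chosen by the diamond values, so this contrast was largely set beforehand.

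Near the gene ends the picture was less narrow. Within 10 kb of the end peaks, 9 of the 10 genes had other shared regions, 23 in all, and 18 of the 23 (78.3%) had a ratio below 0, against 39.7% of the shared regions within 10 kb of all genes with a sh-ctrl end peak. Beyond 10 kb the shares below 0 were 33.9% around the 10 genes and 35.5% around all those genes. Pooled over the 10 genes, regions within 5 kb had a ratio of -0.34 (-0.49 to -0.20) and those from 5 to 10 kb of -0.21 (-0.37 to -0.06). The 10 shared regions within 5 kb all lay at SLC5A5, TNFRSF6B, FAM83A, TNNT2 and EXOC3L4, and the other genes had none there. From 10 to 25 kb the pooled ratio was 0.02 (-0.07 to 0.10) and beyond 25 kb 0.10 (0.04 to 0.16). Around all 14586 genes with a sh-ctrl end peak the same distances gave -0.01, 0.01, 0.01 and 0.03. Peaks in sh-ctrl only made up 27.8% of regions within 5 kb and 28.6% from 5 to 10 kb of the 10 genes, against 16.0% and 17.8% around all those genes. Those in sh-VNGD only made up 16.7% and 9.52% at the same distances, against 29.5% and 36.2% around all those genes. A gene counted as sh-ctrl only has no sh-VNGD peak within 1000 bp of its counted end, so these shares were partly set by the choice of genes. Among the 5 sh-ctrl-only regions within 5 kb are the TNFRSF6B peaks of 63 and 67 tags, which lay inside that limit.

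**Figure D3:**
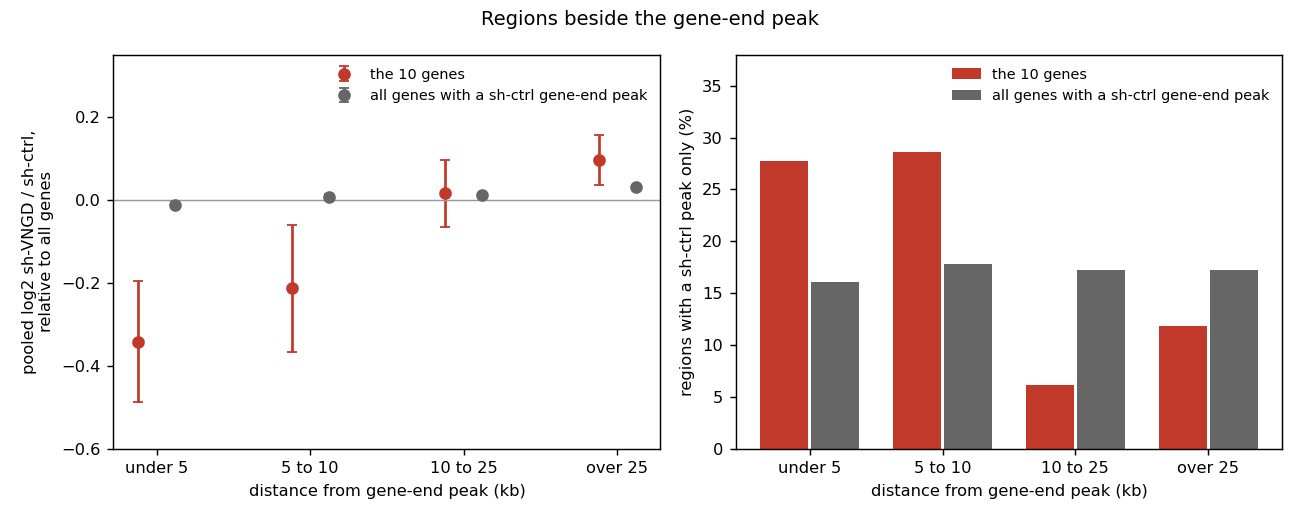
Pooled log2 ratio of shared regions, sh-VNGD over sh-ctrl relative to the median gene end, by distance from the gene-end peak, for the 10 genes and for all genes with a sh-ctrl end peak, with 95% counting intervals. The 10 genes stand at -0.34 within 5 kb and at 0.10 beyond 25 kb, while all genes stay between -0.01 and 0.03. The value within 5 kb rests on shared regions at SLC5A5, TNFRSF6B, FAM83A, TNNT2 and EXOC3L4 only.

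The lower signal within 10 kb was uneven among the 10 genes. FAM83A had -0.43 (-0.69 to -0.17), GDPD3 -0.34 (-0.67 to -0.02), TNNT2 -0.31 (-0.58 to -0.05) and SLC5A5 -0.27 (-0.48 to -0.05), each with an interval below 0. The values for TNFRSF6B, -0.36 (-0.73 to 0.01), and EXOC3L4, -0.20 (-0.50 to 0.10), had intervals that included 0, as did those of C9orf152, MYPN and CATSPER3 (-0.22, 0.04 and 0.19). LRRN4 had no shared region within 10 kb. Beyond 10 kb no gene had a pileup ratio with an interval below 0, and these ratios ran from -0.05 at MYPN to 0.35 at C9orf152.

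A second view of breadth came from the local background that the peak caller recorded, which gives the number of tags within 10 kb (5 kb to each side) of a summit. At the end peak of EXOC3L4 there were 186 such tags in sh-VNGD against 453 in sh-ctrl, a ratio of -1.45 relative to the median gene (-0.29 per kept tag). GDPD3 had 266 tags in sh-VNGD against 446 in sh-ctrl (-0.91), C9orf152 122 in sh-VNGD against 231 in sh-ctrl (-1.08), and LRRN4 112 in sh-VNGD against 180 in sh-ctrl (-0.85). MYPN had 164 tags in sh-VNGD against 210 in sh-ctrl (-0.52), and CATSPER3 100 in sh-VNGD against 110 in sh-ctrl (-0.30). The number was thus lower in sh-VNGD at all 6, most at EXOC3L4 and least at CATSPER3. At or below -0.5 were 5 of the 6, against 3.7% of all genes and 51.2% of genes with an end ratio at or below -1. The end peak itself lies in these 10 kb, and in each of the 6 genes the upper bound on its own tags exceeded those counted in sh-ctrl, so peak and surroundings are not separated.

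For the 4 genes without a sh-VNGD end peak the count was read at the nearest sh-VNGD summit, so the compared stretches are shifted against each other. TNFRSF6B had 420 tags in sh-VNGD, at a summit 4139 bp away, and 1367 in sh-ctrl. TNNT2 had 393 in sh-VNGD at 1690 bp and 762 in sh-ctrl, FAM83A 635 in sh-VNGD at 2508 bp and 848 in sh-ctrl, and SLC5A5 778 in sh-VNGD at 1570 bp and 888 in sh-ctrl. The sh-ctrl number was the higher in each. Here the end peak held at most 16.5% of the sh-ctrl tags within 10 kb at TNFRSF6B, 20.3% at SLC5A5, 23.3% at FAM83A and 24% at TNNT2. At or below -0.5 were TNFRSF6B (-1.87), TNNT2 (-1.12) and FAM83A (-0.58) but not SLC5A5 (-0.35), 3 of the 4, against 7.22% of genes whose end peak was called in sh-ctrl alone and that had a sh-VNGD summit within 5 kb. The values depend on the summit read. At the sh-VNGD summit within 5 kb with the most tags, TNFRSF6B had 804 (-0.93) and TNNT2 647 (-0.40), so that 2 of the 4 stood at or below -0.5, against 4.12% of those genes. The flank background is the median ratio of tags within 10 kb at shared regions over 10 kb from the end region. Relative to the median of all genes, it was below 0 at all of the 10 genes but C9orf152 (0.27). The rest ran from -0.34 at LRRN4 to -0.04 at MYPN, and the median over the 10 was -0.21.

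**Figure D4:**
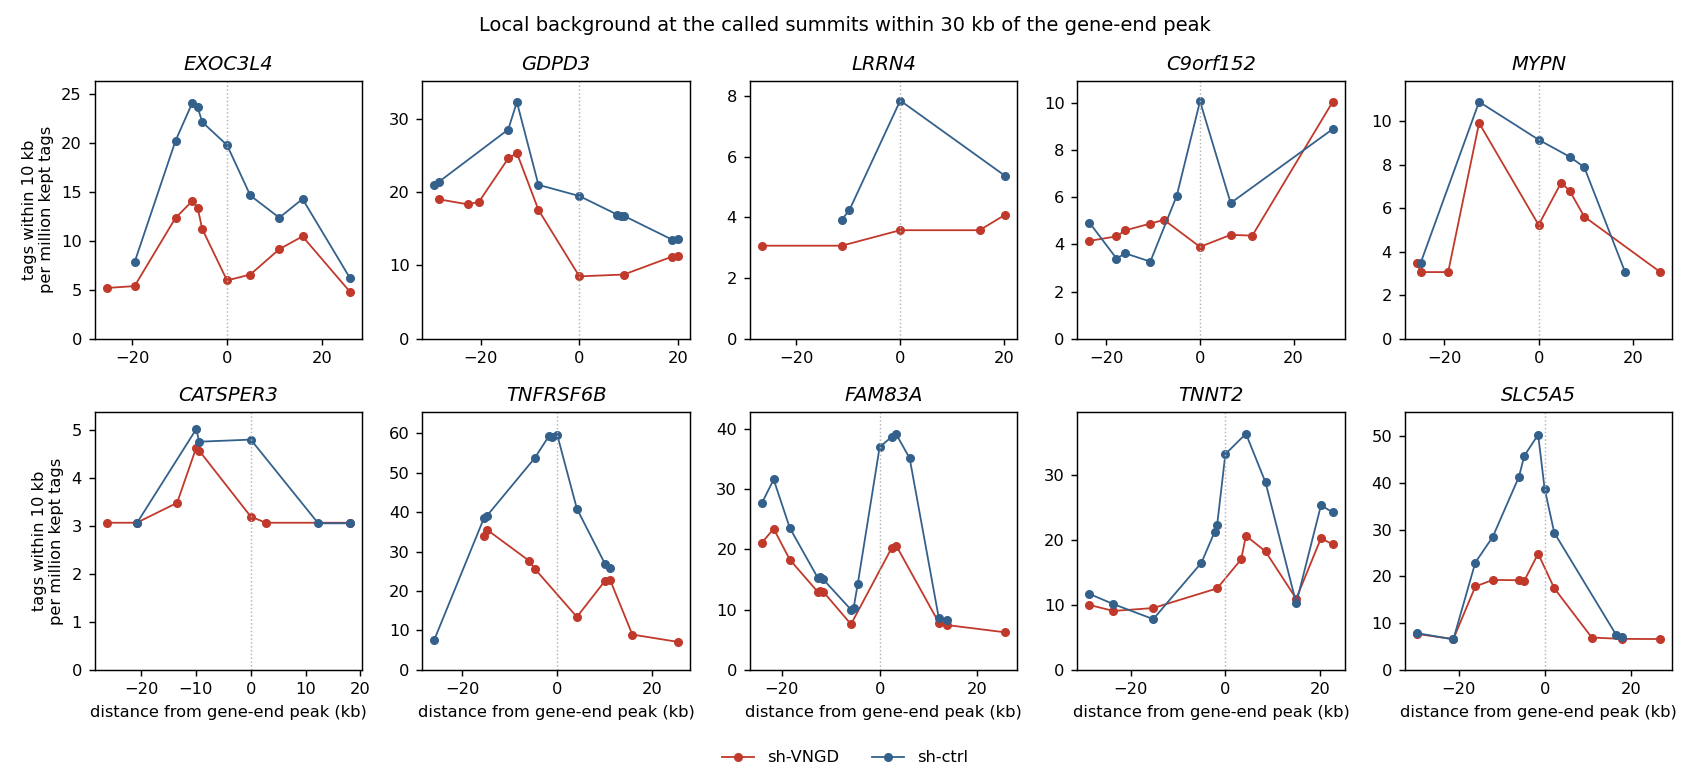
Tags within 10 kb of each peak summit per 1000000 kept tags, against the distance in kb of the peak from the gene-end peak, sh-VNGD and sh-ctrl, 1 panel per gene. The floor of 3.06 tags per 1000000 kept tags is the genome-wide background, below which the peak caller records no value. The sh-ctrl points rise over a stretch of several kb around TNFRSF6B, FAM83A, TNNT2, SLC5A5 and EXOC3L4 where the sh-VNGD points are lower. Points under about 5 kb from the end peak include its tags.

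Regions shared by both libraries allow the same stretch to be compared. Tags within 10 kb reach 5 kb to each side, so at shared regions under about 5 kb from the end peak they include tags of that peak. This holds for TNFRSF6B and for the genes below, so these counts do not separate the surroundings from the end peak. At TNFRSF6B, 3 sh-ctrl peaks in a row, with 63, 67 and 75 tags, had no sh-VNGD partner. All 3 lay within 1000 bp of the counted end, where a gene counted as sh-ctrl only has no sh-VNGD peak. The shared region 4142 bp above (toward higher coordinates) had 28 tags in sh-VNGD against 55 in sh-ctrl (-0.97), and there were 420 tags within 10 kb of it in sh-VNGD against 937 in sh-ctrl. On the other side, 4749 bp below, the summit was alike, with 83 tags in sh-VNGD against 87 in sh-ctrl, while the tags within 10 kb were 804 in sh-VNGD against 1231 in sh-ctrl. Farther below, at 5910.5 bp, a sh-VNGD peak of 41 tags had no sh-ctrl partner. At 10027.5 bp above, the summit had 140 tags in sh-VNGD against 124 in sh-ctrl, and the ratio of the tags within 10 kb was 0.03. On that side the lower signal did not reach this last region.

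At SLC5A5 the nearest shared peaks on both sides of the missing one had similar pileups. Farther below it, at 5993.5 and 4703.5 bp, the summits had 82 and 54 tags in sh-VNGD against 121 and 81 in sh-ctrl, ratios of -0.56 and -0.58. Nearer, at 1508 bp, there were 84 tags in sh-VNGD against 92 in sh-ctrl (-0.13), and at 2243 bp above there were 110 in sh-VNGD against 103 in sh-ctrl (0.09). The tags within 10 kb of the 4 regions were nevertheless lower in sh-VNGD at each, with ratios from -0.98 to -0.46. These counts overlap, so they are not 4 separate readings, and those nearest the end peak include its tags.

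At FAM83A the strongest shared peak inside the gene had 137 tags in sh-VNGD against 182 in sh-ctrl (-0.41) and its neighbour 53 in sh-VNGD against 78 in sh-ctrl (-0.56). Besides the gene-end peak, 3 other sh-ctrl peaks within 10 kb had no sh-VNGD partner, with 24, 30 and 56 tags. At TNNT2 the shared peak inside the gene, 1729 bp from the end peak, had 42 tags in sh-VNGD against 43 in sh-ctrl. Toward LAD1, which makes the basement membrane filament protein ladinin, a shared peak had 55 tags in sh-VNGD against 106 in sh-ctrl (-0.95). The next, 8466.5 bp away, had 114 tags in sh-VNGD against 113 in sh-ctrl. The tags within 10 kb of these 3 shared regions were lower in sh-VNGD at each, with ratios of -0.55, -0.53 and -0.38. The counts behind -0.55 and -0.53 include tags of the end peak. Inside the gene 2 other sh-ctrl peaks, with 33 and 25 tags, had no sh-VNGD partner. Above the end peak, 3324 bp away, a sh-VNGD peak of 26 tags had no sh-ctrl partner.

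At EXOC3L4 the 5 nearest shared peaks stood closer to equal pileups than the end peak. Inside the gene, 10882 bp below, there were 36 tags in sh-VNGD against 64 in sh-ctrl (-0.83), and nearer ones had 40, 61 and 36 in sh-VNGD against 51, 71 and 39 in sh-ctrl. Past the end peak, 4910 bp above, there were 39 in sh-VNGD against 41 in sh-ctrl. The tags within 10 kb of the 4 shared regions nearest the end peak had ratios of -0.87 to -0.49. These counts overlap, and that at the nearest region (-0.87) reaches into the end peak. At GDPD3 the opposite end of the gene, next to MAPK3, had 48 tags in sh-VNGD against 71 in sh-ctrl (-0.56), beside 2 sh-ctrl peaks with 34 and 24 tags and no sh-VNGD partner. On its other side a peak had 95 tags in sh-VNGD against 110 in sh-ctrl (-0.21).

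The remaining 4 genes had fewer shared peaks close by. LRRN4 had 1 other peak within 10 kb, with 20 tags in sh-ctrl and none called in sh-VNGD. C9orf152 had a sh-ctrl peak of 16 tags, 4979.5 bp below, with no sh-VNGD partner. It also had a shared peak 6551.5 bp above, with 36 tags in sh-VNGD against 42 in sh-ctrl, and the tags within 10 kb of it were 138 in sh-VNGD against 132 in sh-ctrl. MYPN had shared peaks of 22 and 48 tags in sh-VNGD against 23 and 45 in sh-ctrl. CATSPER3 had peaks of 19 and 22 in sh-VNGD against 14 and 22 in sh-ctrl. Peaks in sh-VNGD only lay within 10 kb at C9orf152 (13 tags), MYPN (17 tags) and CATSPER3 (12 tags). CATSPER3 is the gene with the lowest counts, and its end difference rests on 12 tags in sh-VNGD against 33 in sh-ctrl.

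At their counted ends, most genes next to the 10 did not share the lower end signal. The counted end is the one with the higher summed pileup, which for some neighbours is the end away from the listed gene. Of 35 protein-coding neighbours in the windows, 32 had an end ratio, with a median of 0.00 and a range from -1.05 to 0.47. At the counted end none shared a peak with any of the 10. At or below -1 stood PALM2AKAP2, near C9orf152, with 13 tags in sh-VNGD against 27 in sh-ctrl, and its counted end lies outside the window. Next came LAD1 beside TNNT2, at -0.95 (-1.44 to -0.46). ALDOA, the muscle and housekeeping aldolase near GDPD3, had 175 tags in sh-VNGD against 173 in sh-ctrl. RTEL1, the helicase gene next to TNFRSF6B, had 118 in sh-VNGD against 103 in sh-ctrl at its far end. Within 1000 bp of its end beside TNFRSF6B lay sh-ctrl peaks of 63 and 67 tags without a sh-VNGD partner. TNFAIP2, near EXOC3L4, was likewise counted at its far end, with 34 tags in sh-VNGD against 31 in sh-ctrl. Its nearer end had 20 in sh-VNGD against 31 in sh-ctrl (-0.63). TNNI1, the slow skeletal troponin I gene near TNNT2, had a peak of 14 tags in sh-ctrl and none in sh-VNGD.

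Genes that work with the 10, or are built like them, were taken as lists of 101 other genes. Of these, 47 had an end ratio, with a median of 0.00, and 1 was at or below -1 (2.13%, against 0.589% of all genes with a ratio) and 0 at or above 1. An end peak in sh-ctrl only was found for 11 (10.9%, against 2.93% of all genes), in sh-VNGD only for 10 (all genes 4.93%), and 32 had none in either (all genes 22.3%). The gene below -1 was TNNC1, the cardiac and slow skeletal troponin C, with 16 tags in sh-VNGD against 43 in sh-ctrl, a ratio of -1.43 (-2.35 to -0.57). With a limit of 500 or 2000 bp in place of 1000 bp for a gene end, 0 of the listed genes was at or below -1.

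Among 28 other sarcomere genes, 8 had a ratio, with a median of -0.02, and 12 had no end peak in either library. In sh-ctrl only were TNNI1 with 14 tags, ACTA1 (skeletal actin) and TPM2 (tropomyosin) with 18 each, and LDB3 (a Z-disc protein) with 15, and 3 others had one in sh-VNGD only. MYBPC3, the cardiac myosin-binding protein C, had 32 tags in sh-VNGD against 33 in sh-ctrl.

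The 12 other exocyst genes had 10 ratios from -0.31 to 0.43 with a median of 0.01, and EXOC3 itself had 55 tags in sh-VNGD against 68 in sh-ctrl. The 9 other genes of the sperm calcium channel had 5 ratios with a median of 0.13, the highest at CATSPER4 (0.50, with 17 tags in sh-VNGD against 12 in sh-ctrl). The 13 other genes of the TNFRSF6B list had 5 ratios with a median of 0.12, the lowest at TNFRSF1A (-0.20). Of the ligands of the TNFRSF6B protein, FASLG (FAS ligand) had no end peak in either library. TNFSF15 had 23 tags in sh-VNGD against 12 in sh-ctrl, a ratio of 0.94 (-0.13 to 2.08), and TNFSF14 had 19 tags in sh-VNGD and no peak in sh-ctrl. In the FAM83 family, FAM83E (37 tags) and FAM83H (11 tags) also had a peak in sh-ctrl only, FAM83G had a ratio of -0.66 (-1.36 to 0.02), and the other 4 lay between -0.25 and 0.15.

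Among the 11 other SLC5 transporters 3 had a ratio. SLC5A6, the sodium-dependent vitamin transporter, had 67 tags in sh-VNGD against 104 in sh-ctrl (-0.63, -1.10 to -0.18), and SLC5A3, the myo-inositol transporter, had 43 in sh-VNGD against 28 in sh-ctrl (0.62, -0.10 to 1.36). Of 11 listed thyroid genes, 4 had a ratio, with a median of 0.13, from -0.40 at DUOXA2, a maturation factor of dual oxidase, to 0.44 at NKX2-1, a thyroid and lung transcription factor. Another 2 had a peak in sh-ctrl only, IYD with 11 tags and DUOX2 with 15, and 5, among them TG, which makes thyroglobulin, had none in either library. The GDPD family had 5 ratios with a median of 0.23.

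By the distance between log2 pileups over the 2 libraries, the genes most like EXOC3L4 were H1-5, a linker histone gene, with 27 tags in sh-VNGD against 74 in sh-ctrl, and NWD1 with 26 in sh-VNGD against 65 in sh-ctrl. Those most like GDPD3 were DHX32 with 65 tags in sh-VNGD against 144 in sh-ctrl and P2RX2 with 65 in sh-VNGD against 137 in sh-ctrl. The measure rests on 2 values per gene and is a description.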

How the data were processed

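The 2 peak lists, 1 per library, were used, limited to peaks on the autosomes, X and Y. Per the file headers, the authors called peaks with MACS 2.1.0.20150731 on each library alone, without a control library, with tags shifted by 100 bp and extended to 200 bp, 1 tag kept per position, a q threshold of 0.05 and a local background of 10000 bp. Per the submitters' processing notes, tools included deepTools, MACS2 2.1.2 and Bowtie2 2.2.5, and the build was GRCh38.p13 (hg38). The deposited pileup is a signal, the unscaled number of tags over the summit. The fold enrichment over local background and the −log10 q-values are the authors' and served as alternatives. Kept tags were 31326715 in sh-VNGD against 22931980 in sh-ctrl.

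Peaks overlapping by at least 1 bp were merged across libraries with pandas 2.3.3, and the higher pileup per library represented each region. Genes came from RefSeq (GRCh38.p14). The gene end with the higher summed scaled pileup was used. Pileups were divided by kept tags and compared as log2 ratios. Tags within 10 kb were computed from pileup and fold. Intervals came from SciPy 1.17.1. The named genes are the 10 listed, their neighbours within 50 kb, the listed related genes and the genes of most similar pileups. The members and lists were chosen with earlier results of these data known. Interval coverage was tested on simulated data.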

Additional observations from a re-analysis of the deposited data

How the results depend on the processing

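No paired analysis was possible because each group held 1 library. The median end ratio of the 6 genes, -1.53, was -1.98 without centring on the median gene and -0.90 by fold enrichment. Of 36 alternative values for these genes singly, all were below 0 and 32 were at or below -1. Settings in which a gene lost its ratio are not in this count. Apart from fold enrichment, the values reuse the pileups by which the genes were chosen, so their sign was largely set beforehand. By fold enrichment MYPN (-1.04) and CATSPER3 (-1.18) were at or below -1. EXOC3L4 (-0.56), C9orf152 (-0.65), LRRN4 (-0.89) and GDPD3 (-0.92) were not. SLC5A5, without a ratio at 1000 bp, had 0.09 at 2000 bp. The median flank ratio of the 10 genes, -0.10, was -0.012 unscaled and uncentred, -0.46 scaled and uncentred, 0.022 by fold enrichment, -0.17 over 25 kb, -0.21 with uncalled peaks set to the lowest called pileup, -0.15 without other gene ends, -0.0077 over 500 kb and -0.40 within 10 kb (4 genes). Of the 10 flanks read as a difference at 1 peak, 1 was so when scaled and uncentred, 5 with uncalled peaks set to the lowest called pileup, and 0 of 4 within 10 kb. The cause of these shifts was not tested. The median flank background ratio of the 10 genes, at shared regions over 10 kb from the end region, was -0.21, and -0.085 over 500 kb. The 69 sh-VNGD-only regions became 43 when peaks were limited to a −log10 q of at least 5. The 1 related gene at or below -1 became 0 with a −log10 q of at least 5 and with a limit of 500 or 2000 bp, and 4 at a threshold of -0.5. The 500 kb and 10 kb settings and the reading at the sh-VNGD summit with the most tags were added after the data were seen, as was setting the missing sh-VNGD end peaks to the lowest summit called at a like background, which gave a median of -1.48 over all 10 genes.

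Counts of 12 to 48 tags in sh-VNGD limit the precision of single ends, and 1 library per group leaves variation between cultures unmeasured.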
